A study of Homo sapiens with 5 samples.

Results

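The genes for the proteins of the cytosolic ribosome were described in T84 cells, an established line from a human colon carcinoma that forms an epithelial sheet, with and without interferon-gamma (IFN-gamma). Members were genes with a probe set annotated to that gene alone whose symbol is RPL or RPS followed by a number, with an optional letter A, L or X, or is RPLP0, RPLP1, RPLP2 or RPSA. This gave 43 probe sets for 42 genes, among 7018 probe sets and 4961 genes in all. The small subunit contributed 18 genes and the large subunit 24. For RPS14, the 1 gene with a pair of probe sets, the one with the higher mean over the 5 arrays was used. RPLP0, RPLP2 and RPSA were not analysed here, since no probe set carried any of them as its only symbol. A further 17 probe sets list a ribosomal protein symbol together with other genes, often small nucleolar RNAs that lie within introns of ribosomal protein genes. They are described only as a set.

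There were 5 Affymetrix arrays of total RNA: 1 of untreated cells, described as a pooled control, 2 of cells given IFN-gamma at 1000 U/ml for 6 h, and 2 of cells given the same dose for 18 h. Each probe set has an intensity on a linear scale, and values under 20 were set to 20 before the log2 was taken. The labels do not say how the cultures behind replicates were separated, and a p-value here covers no more than the spread among these arrays, which may be technical. The untreated array has no replicate. Each array holds RNA of a whole culture, in which fewer cells and less RNA per cell cannot be told apart.

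Interferon target genes went against 2 labels. CXCL10, a chemokine induced by IFN-gamma, reached an intensity of 1317 in the untreated sample as labelled, 41 and 1149 on the 6 h arrays, and 1260 and 1399 on the 18 h arrays. IRF1, a transcription factor induced through STAT proteins, gave 1086 there, 14 and 907 on the 6 h arrays, and 933 and 921 on the 18 h arrays. TAP1, a peptide transporter, had 1772 there, 61 and 1208 after 6 h, and 1346 and 2038 after 18 h, and the GTPase GBP1 had 325, 8 and 368, and 452 and 405 in the same order. The array labelled untreated thus had these genes at the level of treated cells, whereas the one labelled 6 h replicate 1 had them near the floor. Both keep their labels below, where untreated, without treatment and after 6 h name the label of an array and no more. The interferon genes oppose the label behind any direction that uses either array. Of 15 colon epithelial markers, all 15 were above the floor on every array, while 1 to 4 of 6 leukocyte markers were, with PTPRC between 15 and 38 and CD3E between 168 and 345. Of 10 fibroblast and endothelium markers, 4 were above the floor on the untreated array, 4 and 6 on the 6 h arrays, and 5 on each 18 h array. The arrays held no copies of each other: at most 141 of 7018 values were equal between any pair.

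The cytosolic ribosome translates every mRNA made in the nucleus. Its small subunit reads the message, its large subunit joins amino acids, and each ribosomal protein is needed in about equal amounts. In vertebrates these genes are held in step partly through their mRNAs, which begin with a C and an unbroken run of pyrimidines, the terminal oligopyrimidine tract, through which growth signalling by the mTOR kinase controls their translation. In human myeloid cells IFN-gamma also acts through RPL13A, which leaves the ribosome as part of a complex that silences inflammatory mRNAs. RPL13A is not among the members and was not analysed here.

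The start sites below are shown because this tract is a feature that most members with a promoter entry carry and the symbol rule did not use. Sequences are from RefSeq (GRCh38.p14). Each runs from 10 bases before to 20 bases from the annotated start on, in the direction of the gene, and capitals mark the pyrimidine run that begins at the start. The genes shown stand at an end of a comparison below or of the gap between the 18 h arrays. RPS28 and RPS29 are among them as genes with no run of at least 5 pyrimidines at this start. RPL10A and RPS7 have no run of that length there either.
RPS6 (chr9:19380217-19380246, minus strand): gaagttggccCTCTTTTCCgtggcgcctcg
RPS7 (chr2:3575250-3575279, plus strand): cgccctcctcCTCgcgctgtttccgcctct
RPS9 (chr19:54200848-54200877, plus strand): gcttccgcgcCTCTTTCTCagtgaccgggt
RPS21 (chr20:62387093-62387122, plus strand): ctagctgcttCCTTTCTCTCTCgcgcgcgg
RPS28 (chr19:8321486-8321515, plus strand): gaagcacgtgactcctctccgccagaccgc
RPS29 (chr14:49598691-49598720, minus strand): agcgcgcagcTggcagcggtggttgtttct
RPL10A (chr6:35468391-35468420, plus strand): aagacatgctagtctcttttccggttagcg
RPL24 (chr3:101686699-101686728, minus strand): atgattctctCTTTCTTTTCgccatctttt
RPL34 (chr4:108620566-108620595, plus strand): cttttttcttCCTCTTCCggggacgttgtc
RPL35A (chr3:197950180-197950209, plus strand): gggcctcgtcCTTCTCTTaccgccatcttg
RPL37A (chr2:216498834-216498863, plus strand): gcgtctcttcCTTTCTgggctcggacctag
RPLP1 (chr15:69452808-69452837, plus strand): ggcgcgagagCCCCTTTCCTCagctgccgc
RPL39 (chrX:119791611-119791640, minus strand): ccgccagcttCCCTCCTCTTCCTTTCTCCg

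Of 42 members, 38 had a promoter entry. A run of at least 5 pyrimidines beginning with C at an annotated start was present in 28 of the 38 (73.7%), against 5.14% of 27305 genes in the same table. The longest run from a start ranged from 0 bases to 19 and had a median of 7, with the longest in RPL39. In RPL10A and RPS28 the start shown is an A and pyrimidines follow a few bases on, and in RPS7 a G breaks the run after 3 bases. The motif CGGAAG, searched on both strands of the 300 bases from 250 before to 50 after the start, was in 26 of 38 members (68.4%) and in 22.6% of all genes. TATAAA in the 50 bases before the start was in 1 of 38 (2.63%), against 3.33% of all genes. These are matches of letters and show no binding.

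The members were among the brightest probe sets of every array. In all, 40 of the 42 had a mean intensity of 825.8 to 2362, and these 40 were within the top 500 of 7018 probe sets on each of the 5 arrays. The other 2, RPS27 and RPL3L, averaged 13.8 and 11.8. The median intensity of the 40 bright genes was 1516 on the array labelled untreated, 2375.5 and 1020 on the 6 h arrays, and 1124 and 1846.5 on the 18 h arrays. The array labelled 6 h replicate 1 was therefore highest, 18 h replicate 2 next, and 18 h replicate 1 and 6 h replicate 2 lowest, so that both treated groups straddled the untreated array.

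**Figure D1:**
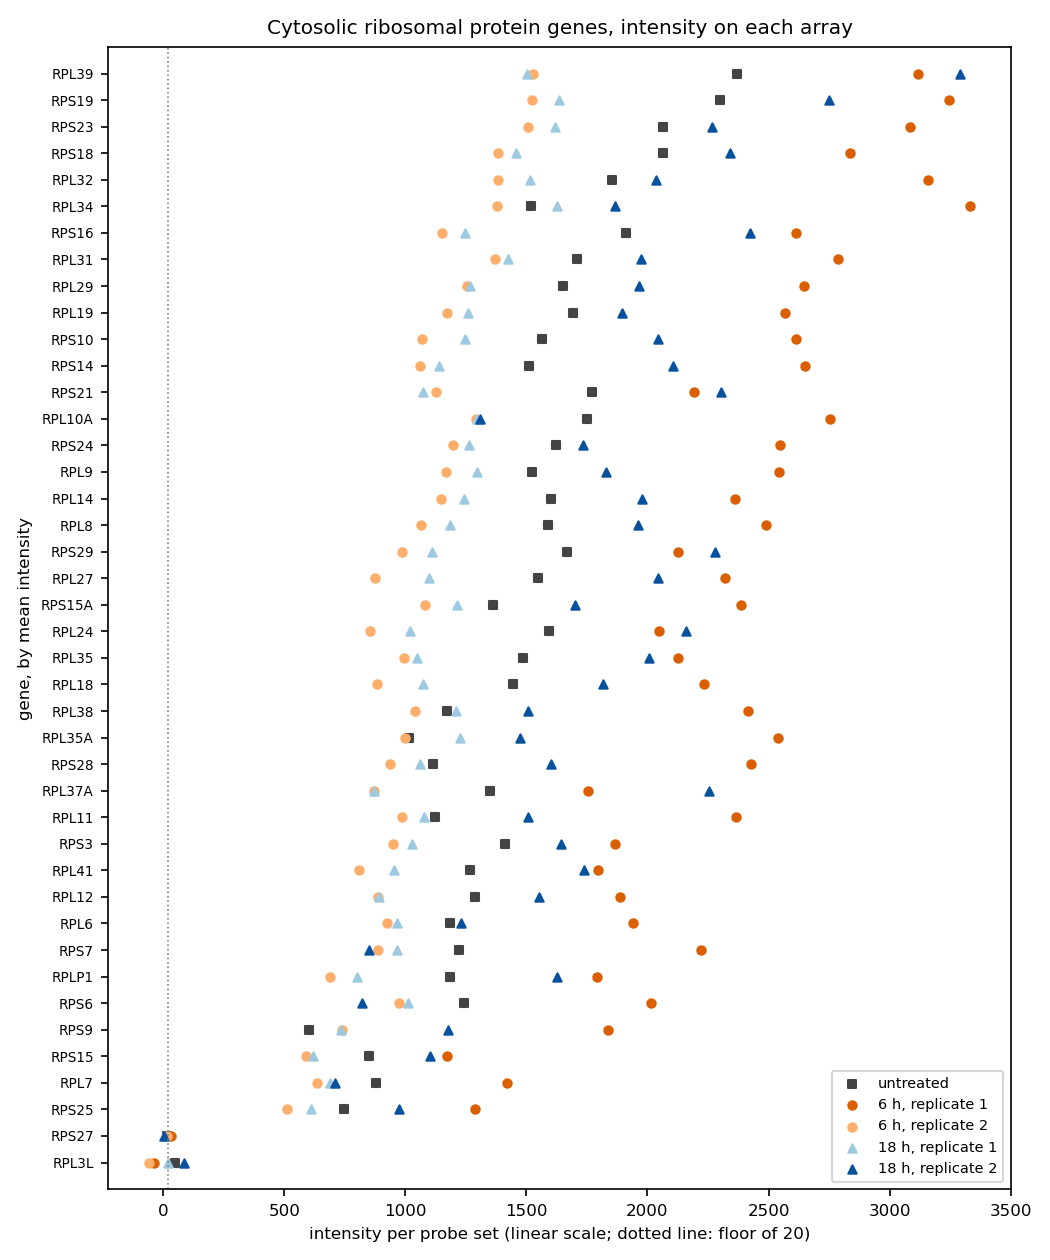
Intensity of the 42 cytosolic ribosomal protein genes (rows, by mean) on each of the 5 arrays (linear scale, 1 point an array; no error bar, as each point is 1 array). In 40 genes the values lie between 512 and 3331, with 6 h replicate 1 highest in 35 and 6 h replicate 2 lowest in 34; RPS27 and RPL3L lie near the floor of 20.

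The highest mean belonged to RPL39, a small protein that lines the tunnel through which the new chain leaves the large subunit. Its intensity was 2369 on the array labelled untreated, 3117 and 1528 on the 6 h arrays, and 1503 and 3293 on the 18 h arrays. RPS19, in the head of the small subunit and the gene most often mutated in Diamond-Blackfan anaemia, had 2300 without treatment, 3244 and 1523 after 6 h, and 1633 and 2751 after 18 h. RPS23, which sits at the decoding centre, RPS18, in the head of the small subunit, and RPL32 completed the 5 highest, with means of 2108.2, 2016.6 and 1989. In each of these 5 genes the replicates of a treated group differed more than either treated mean differed from the untreated array.

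The 5 lowest means were those of RPL3L and RPS27, then RPS25, RPL7 and RPS15, at 825.8, 866.4 and 866.8. RPL3L, a paralog of RPL3 that is made in heart and skeletal muscle, gave 48 without treatment, -38 and -57 after 6 h, and 19 and 87 after 18 h, so it was above the floor on 2 of 5 arrays. RPS27, a zinc-finger protein of the small subunit, had 16 without treatment, 32 and 16 after 6 h, and 2 and 3 after 18 h, and was above the floor on 1 array. The name of its probe set holds the same sequence identifier as that of RPS24, which had a mean of 1673.4. Its assignment to RPS27 is therefore uncertain, and whether its low values are those of RPS27 was not tested. The second probe set of RPS14 was below 0 on every array, from -86 to -30, while the one used here had 1512 without treatment, 2651 and 1062 after 6 h, and 1138 and 2107 after 18 h. Levels of different probe sets depend on their probes, so this order ranks probe sets and not transcripts.

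Set against the array labelled untreated, the 40 bright genes moved as a block on each treated array, and in opposite directions on replicates. On the array labelled 6 h replicate 1, 40 of 40 were above the untreated array, with a median ratio of 1.57. On 6 h replicate 2, 39 of 40 were below it, with a median ratio of 0.7. On 18 h replicate 1, 36 of 40 were below, at a median ratio of 0.76, and on 18 h replicate 2, 36 of 40 were above, at 1.25. Over all 5029 probe sets tested, the median log2 difference was 0.00 on each of these arrays, and the shares on the side of these counts were 40.8% above on 6 h replicate 1, 43.9% below on 6 h replicate 2, 49.5% below on 18 h replicate 1 and 41.6% above on 18 h replicate 2. The same order of arrays, 6 h replicate 1 over 18 h replicate 2 over untreated over 18 h replicate 1 over 6 h replicate 2, was found in 27 of the 40 genes.

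**Figure D2:**
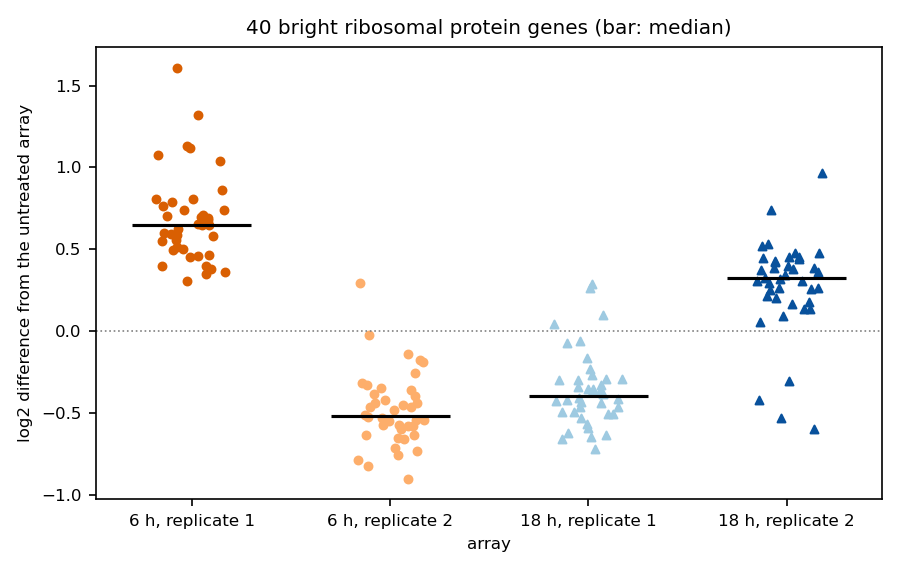
Log2 difference of each of the 40 bright genes from the array labelled untreated (y axis) on the 4 treated arrays (x axis), 1 point a gene, with a bar at the median. The medians are 0.649, -0.518, -0.396 and 0.325, so replicates of a time lie on opposite sides of 0.

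The upper end of the probe sets that are no members moved in the same order, and their middle did not. The 99th percentile of the tested probe sets that are no members was 1718.1 without treatment, 2412.1 and 1228.3 after 6 h, and 1321.3 and 2017.7 after 18 h. Their 90th percentile was 441.4 without treatment, 423.4 and 466 after 6 h, and 472 and 426 after 18 h, and their median was 73, then 65 and 78, then 71 and 72, so that 6 h replicate 1 was lowest on both. These probe sets include the 17 that list a ribosomal protein symbol among several, so their upper end is not free of the family. The 17 had medians of 1489 without treatment, 2357 and 997 after 6 h, and 1144 and 1824 after 18 h. After quantile normalization, which gives every array the same distribution of values, the median log2 difference of the 40 genes from the untreated array was 0.13 and -0.076 on the 6 h arrays, and -0.12 and 0.045 on the 18 h arrays. In rank, the median of the 40 bright genes stood at 98.5 of 7018 on the untreated array. It stood at 73.5 and 126 on the 6 h arrays, and at 123.5 and 93 on the 18 h arrays.

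The comparison of 18 h with the untreated array was made by label. Interferon genes were at the level of treated cells on both sides. Their log2 changes were 0.012 in CXCL10, -0.228 in IRF1, -0.097 in TAP1 and 0.396 in GBP1. The comparison therefore cannot show whether IFN-gamma alters the family. By limma, with p-values adjusted by Benjamini-Hochberg, no member passed (0 of 42, against 0% of all 5029 probe sets tested), and none of the 42 had an unadjusted p under 0.05, against 4.43% of all. The 42 genes had a median log2 change of -0.057, with 13 above 0, against 42.3% of all probe sets, and 28 below (66.7%), against 51.8%. The median over all probe sets was -0.022. Standard errors of the bright genes ran from 0.56 to 0.85 on the log2 scale, larger than each of their changes. The small subunit had a median of -0.11 and the large subunit -0.051 over their bright genes.

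RPS9, a small-subunit protein at the mRNA entry side, had 735 and 1176 at 18 h, against 601 on the array labelled untreated. Its log2 change of 0.63 (SE 0.74) was the highest of the family against this array (limma adjusted p = 1). Against the array labelled 6 h replicate 1, the one with interferon genes near the floor, most of the family was lower. On 18 h replicate 1, 40 of 40 bright genes were below it, with a median log2 difference of -1.03, against 43.0% of all probe sets below. On 18 h replicate 2, 35 of 40 were below it, with a median of -0.38, against 43.4% of all. The 99th percentile of tested probe sets that are no members was also lower, at 1321.3 and 2017.7, against 2412.1 on 6 h replicate 1. After quantile normalization, the median log2 difference of the 40 from the untreated array was 0.13 on 6 h replicate 1. It was -0.12 and 0.045 on the 18 h arrays. Whether the lower values are particular to the family was not tested. RPS9 lay at -1.32 on 18 h replicate 1, the lowest of the 40 there, and at -0.64 on 18 h replicate 2. RPL35A, mutated in some families with Diamond-Blackfan anaemia, had 1224 and 1474 at 18 h, against 1017. RPL38, which in mice is needed for the translation of a set of Hox mRNAs, had 1210 and 1506 at 18 h, against 1173, and RPL34 had 1626 and 1866, against 1520. In these 4 genes both 18 h arrays were above the untreated array, as in 23.4% of all probe sets, and each change was smaller than its SE. RPS28, at the channel where mRNA leaves the small subunit, had 1059 and 1603 at 18 h, against 1115, so the groups overlapped.

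At the other end stood RPS6, the small-subunit protein phosphorylated by S6 kinases downstream of mTOR. It had 1011 and 821 at 18 h, a mean of 916 ± 134 (SD, n = 2), against 1242, with a log2 change of -0.45 (SE 0.56, limma adjusted p = 1). RPS7, which can bind the p53 regulator MDM2, had 965 and 848 at 18 h, against 1223. RPL10A, the protein of the stalk beside the exit site of tRNA, had 1295 and 1309 at 18 h, against 1751, and RPL7 had 687 and 711, against 878. These 4 genes were below the untreated array on both 18 h arrays, as were 35.4% of all probe sets. On 18 h replicate 2 the other 36 bright genes were above the untreated array.

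By label, the 6 h arrays were next set against the untreated one. Of these arrays, 6 h replicate 1 alone had interferon genes near the floor. In this comparison 0 of 42 members passed (0% of all probe sets). None had an unadjusted p under 0.05, against 3.64% of all. The median log2 change was 0.08, with 26 above 0, against 46.5% of all probe sets, and 16 below, against 49.2%. The median over all probe sets was 0.00. RPS9 had 1836 and 737 after 6 h, against 601. The log2 change was 0.95 (SE 0.74, limma adjusted p = 1). It was the 1 member above the untreated array on both 6 h arrays, as were 19.8% of all probe sets. RPL35A had 2540 and 1000 at 6 h, against 1017, and RPL34 had 3331 and 1378, against 1520. RPL11, which with RPL5 can hold MDM2 in check, had 2365 and 985 at 6 h, against 1122, and RPS28 had 2427 and 936, against 1115. In these 4 genes 6 h replicate 1 was high and 6 h replicate 2 was at or below the untreated array, so the groups overlapped.

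The lowest changes at 6 h were in RPL3L, which was below 0 on both 6 h arrays and had 48 on the untreated array, and in RPL24, RPS29, RPS21 and RPS16. RPL3L was the 1 member below the untreated array on both 6 h arrays after the floor, against 27.8% of all probe sets. RPL24, a large-subunit protein at the face towards the small subunit, had 2046 and 853 after 6 h, against 1592. The log2 change was -0.27 (SE 0.83, limma adjusted p = 1). RPS29, a zinc-binding protein of the small-subunit head, had 2126 and 987, against 1669. RPS21 had 2192 and 1125 at 6 h, against 1772, and RPS16 had 2613 and 1151, against 1911. Each of these 4 was again above the untreated array on 6 h replicate 1 and below it on 6 h replicate 2.

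Between the times, 18 h against 6 h, 0 of 42 members passed (0% of all probe sets) and none had an unadjusted p under 0.05, against 4.31% of all. The median log2 change was -0.13, with 32 below 0 (76.2%), against 52.4% of all probe sets, and 10 above, against 45.4%. The median over all probe sets was -0.034. In 0 of 42 members did the arrays of the 2 times separate after the floor, against 11.4% of all probe sets with 18 h higher and 13.6% with 18 h lower. RPS7 had 965 and 848 at 18 h, against 2223 and 888 at 6 h, with a log2 change of -0.63 (SE 0.55, limma adjusted p = 0.94). RPS6 had 1011 and 821 at 18 h, against 2016 and 975 at 6 h, and RPL10A 1295 and 1309, against 2755 and 1291. RPL7 had 687 and 711 at 18 h, against 1419 and 637 at 6 h. In all 4 the lower of the 6 h arrays lay within or beside the 18 h values, so the gap between the means lay in 6 h replicate 1.

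Beside RPL3L, the highest changes between the times were in RPL37A, RPL24, RPS29 and RPL41, the last a very short and basic peptide of the large subunit. RPL37A, a zinc-finger protein of the large subunit, had 869 and 2254 at 18 h, against 1755 and 870 at 6 h. The log2 change was 0.18 (SE 0.69, limma adjusted p = 0.996). RPL41 had 953 and 1738 at 18 h, against 1797 and 809 at 6 h. In each of these 4 genes 1 array of each time was high and 1 low. RPL3L had its log2 change of 1.03 (SE 0.83, limma adjusted p = 0.94) from 18 h replicate 2 alone, since both 6 h arrays and 18 h replicate 1 were under the floor, and RPS27 was under the floor at 18 h.

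**Figure D3:**
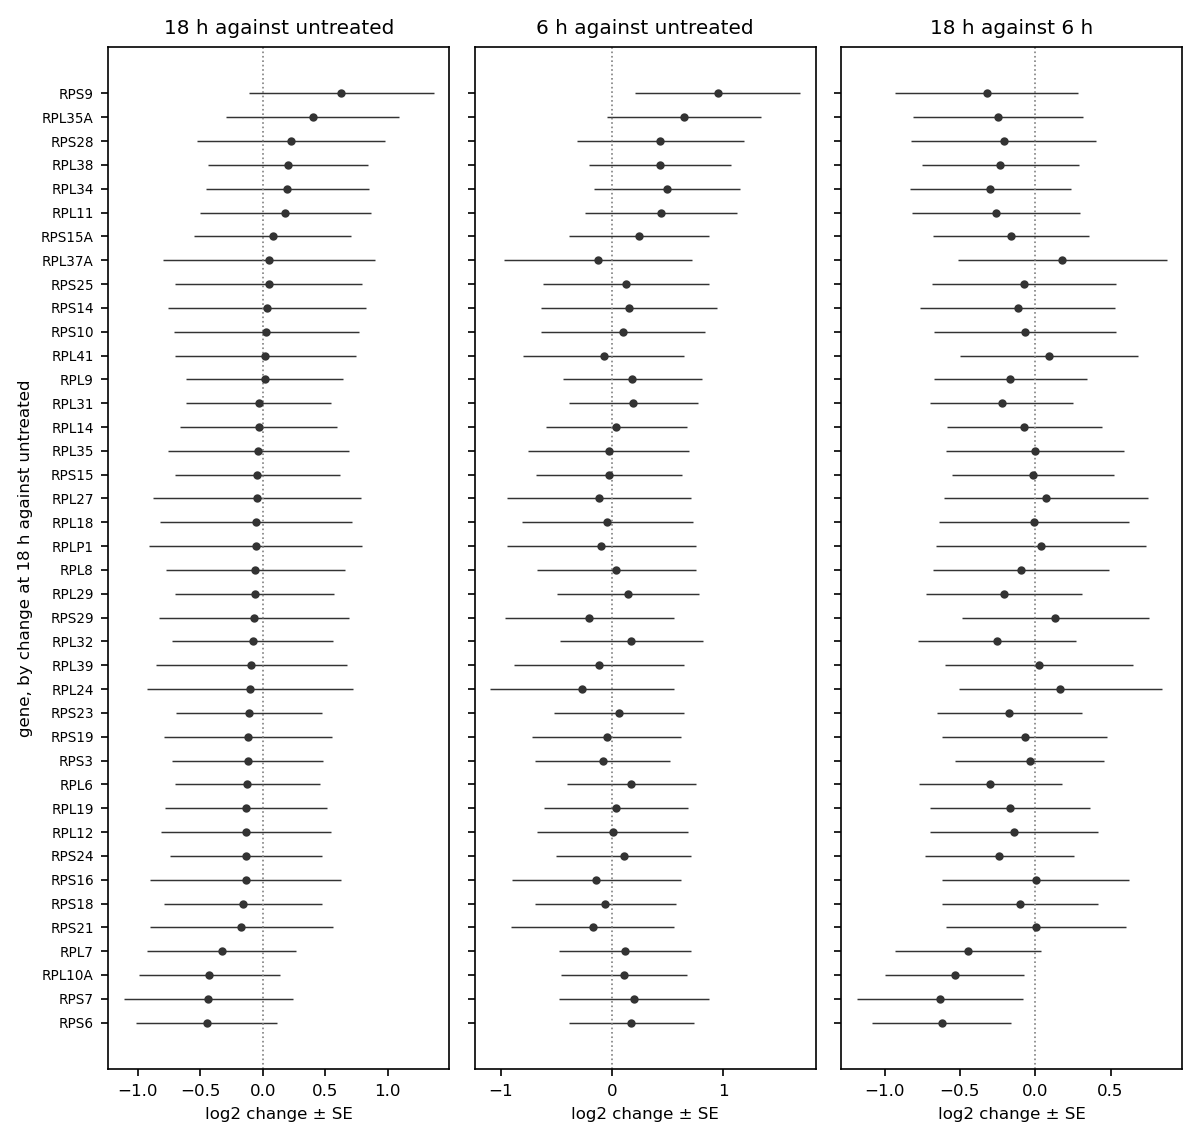
Fitted log2 change with its SE from limma for the 40 bright genes (rows) in the 3 comparisons, with a dotted line at 0. Changes lie between -0.64 and 0.95, SEs are 0.46 to 0.85, and no gene passed the adjusted test in any comparison.

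Within a treatment time the replicates differed more than the means of the times did. Single arrays of different times also differed, with a median ratio of 0.49 for 18 h replicate 1 against 6 h replicate 1. For 18 h replicate 2 against 6 h replicate 2 it was 1.72. The array labelled 6 h replicate 1 was above 6 h replicate 2 in 40 of 40 bright genes by a median ratio of 2.2. Interferon genes were near the floor on the first of these arrays and not on the second. The difference was even across the family: from 0.96 (log2) in RPS21 to 1.41 in RPL27, with an SD of 0.13 over the genes. Between 18 h replicate 2 and 18 h replicate 1 the median ratio was 1.6, in 38 of 40 genes with replicate 2 higher, but the differences ran from -0.30 in RPS6 to 1.37 in RPL37A, with an SD of 0.36. 18 h replicate 1 and 6 h replicate 2, arrays of different times, were the closest in level, with a median ratio of 1.08 and an SD of 0.094.

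Thus 18 h replicate 2 had a different balance of ribosomal protein signals from the other treated arrays. Across the 40 genes the Pearson correlation of log2 values was 0.94 between the 6 h arrays and 0.97 between 18 h replicate 1 and each of them. It was 0.62, 0.65 and 0.66 between 18 h replicate 2 and the other 3 treated arrays. The correlation of the array labelled untreated with the treated arrays was 0.75 to 0.84. These are descriptions across genes, which are not independent replicates and share each array's scaling. On 18 h replicate 2 the genes furthest up were RPL37A, RPL39 (3293, against 1503 on 18 h replicate 1), RPS21 (2303, against 1075), RPL24 (2160, against 1018), RPS29 (2278, against 1110) and RPLP1 (1625, against 801). RPLP1 is an acidic protein of the flexible stalk that recruits elongation factors. RPS6 and RPS7 were lower on 18 h replicate 2 than on 18 h replicate 1, and the smallest differences above 0 were 0.016 in RPL10A and 0.049 in RPL7 (log2). After quantile normalization the difference between the 18 h arrays still ran from -0.60 to 1.00 (log2).

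**Figure D4:**
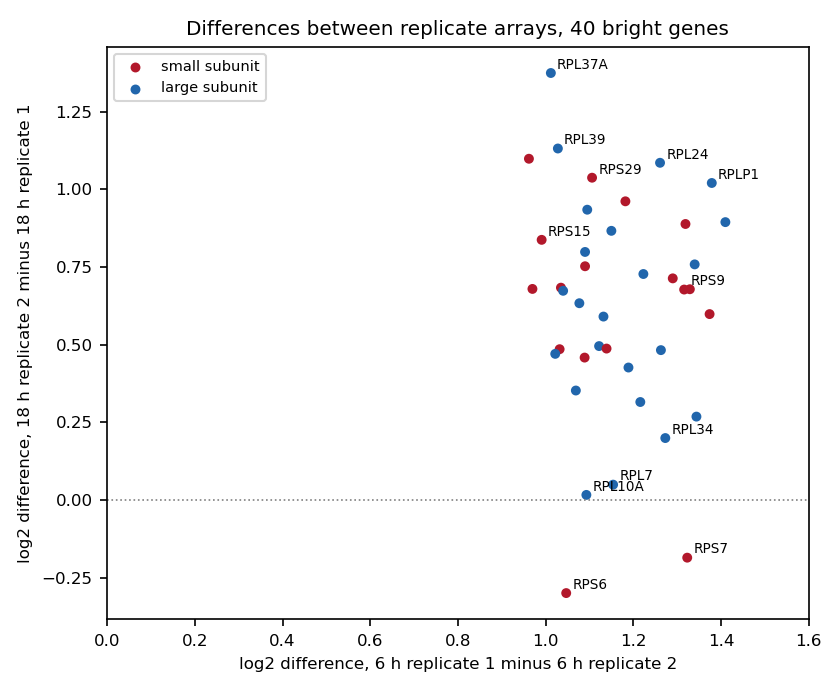
Log2 difference between the 6 h replicate arrays (x axis, replicate 1 minus 2) and between the 18 h replicate arrays (y axis, replicate 2 minus 1) for the 40 bright genes, coloured by subunit. The x values span 0.96 to 1.41 and the y values -0.30 to 1.37, with RPS6 and RPS7 below 0.

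The genes of the wider translation apparatus were read from lists. The elongation factors and other mRNAs with a pyrimidine tract had 12 measured members. Their median log2 change was -0.22 at 18 h against untreated, with 3 above 0 and 9 below, where 51.8% of all probe sets were below 0. EEF1D, a subunit of the exchange factor of elongation factor 1, had 686 and 326 at 18 h, against 129 on the array labelled untreated. It had 1002 and 335 at 6 h, so 6 h replicate 1 was above both 18 h arrays. EIF4B, which helps the helicase unwind mRNA leaders, had 346 and 312 at 18 h, against 646, and the poly(A)-binding protein PABPC1 1004 and 853, against 1468. EIF4B also had 845 and 685 at 6 h, so both 18 h arrays were below the other 3. None of the 12 passed the test.

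Of 18 initiation factors, 2 were above 0 and 16 below at 18 h, with a median of -0.60, beside -0.057 for the ribosomal proteins and -0.022 for all probe sets, of which 51.8% were below 0. EIF2S3, a subunit of the factor that brings the initiator tRNA, had 48 and 7 at 18 h, against 74, and EIF3A, the scaffold of the factor that binds the small subunit, 37 and 19, against 57. EIF5A, which relieves stalled ribosomes, had 99 and 71 at 18 h, against 42, and 115 and 52 at 6 h. These 3 probe sets are dim, within a few fold of the floor, and none of the 18 passed.

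The 14 measured genes of ribosome biogenesis and RNA polymerase I had a median of -0.30 at 18 h, with 3 above 0 and 11 below, against 51.8% of all probe sets below 0. BYSL, needed for assembly of the small subunit, had -38 and 8 at 18 h, against 109, and -87 and 23 at 6 h. NOLC1, a nucleolar chaperone, had 78 and 41 at 18 h, against 149, and 48 and 167 at 6 h. RRP1B had 23 and 18 at 18 h, against 68, and -8 and 70 at 6 h. The 8 mitochondrial ribosomal proteins, which belong to another ribosome, had a median of -0.035 at 18 h. MRPL28 had 271 and 220 at 18 h, against 161, and 293 and 298 at 6 h. MRPS27 had 54 and 35 at 18 h, against 83, and 27 and 80 at 6 h. MRPL58, a release factor built into the mitochondrial ribosome, had 49 and 68 at 18 h, against 98, and 105 and 88 at 6 h. No gene of these lists passed at either time.

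The 7 nascent-chain factors had a median of -0.215 at 18 h, with 2 above 0 and 5 below, against the same 51.8%. Among proteins of the signal recognition particle, SRP19 had 45 and 73 at 18 h, against 136, SRP72 32 and 19, against 49, and SRP14 643 and 470, against 741. Of 9 genes of growth signalling to ribosomes, 5 were above 0, against 42.3% of all probe sets, and 4 below, with a median of 0.058. MAX, the partner of MYC, had 110 and 86 at 18 h, against 48, TSC2, a brake on mTOR, 339 and 467, against 292, and the kinase RPS6KB1, near the floor, 9 and 3, against 32. RPL36AL, a paralog outside the symbol rule, had 777 and 605 at 18 h, against 639, and UBB, a polyubiquitin gene, 1351 and 2635, against 2240. Of the complex that silences mRNAs in human myeloid cells, EPRS1 had 101 and 103 at 18 h, against 139, and 101 and 137 at 6 h. GAPDH had 1276 and 2238 at 18 h, against 1743. The kinase DAPK1 was at or below the floor on the untreated array and both 18 h arrays.

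The lists differed in how far they moved between replicate arrays. On the array labelled 6 h replicate 1 against 6 h replicate 2, the median log2 difference was 0.83 for the elongation factors and other tract-bearing mRNAs, 0.15 for the initiation factors, 0.057 for the mitochondrial ribosomal proteins, 0.28 for 12 housekeeping genes outside translation and -0.30 for ribosome biogenesis, beside 1.13 for the 40 bright ribosomal protein genes. On the same pair the 15 colon epithelial markers, which are no translation genes, had a median of 0.95, RPL36AL had 1.08 and UBB 1.13. On 18 h replicate 2 against 18 h replicate 1 it was -0.16, -0.32, -0.15, 0.34 and -0.17 for the same 5 lists, beside 0.68, and 0.065 for the colon markers, -0.36 for RPL36AL and 0.96 for UBB. The lists differ in brightness, with medians on the array labelled untreated of 739.5, 358.5, 178, 1580 and 129 for the 5 lists and 662 for the colon markers, and the part of brightness in these differences was not tested.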

How the data were processed

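The authors deposited an intensity per probe set for each of 5 Affymetrix arrays. RNA was labelled with biotin, per the labels' protocols. The computation, correction and scaling of intensities were not given in the sources used here. Values are linear whole numbers, of which 25.3% to 29.5% per array are negative. A deposited list of induced probe sets, with intensities, holds 97 entries and 0 of the probe sets that carry a ribosomal protein symbol, alone or among several. The other genes named here were not looked up in it. No per-sample column was left unmapped. Depth has no meaning for arrays, and their number limits precision.

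Gene names came from the platform annotation of each probe set: 5649 had a single symbol, 321 several and 1048 none. The log2 was taken of each intensity plus 1 after a floor of 20, so a change of a dim gene is understated. The 5029 probe sets above 20 on at least 1 array were tested, all 42 members among them. limma 3.58.1 in R 4.3.3 compared group means over all 5 arrays (2 residual degrees of freedom, prior 1.24), with Benjamini-Hochberg adjustment over all 5029 and a threshold of 0.05. The code of the fit was run on simulated data without shifts of whole arrays, so that run does not show its power on these arrays. Members and lists were chosen with earlier results of these data known, and no list was tested. Genes are named by rule: for every comparison the 5 members with the highest change and the 5 with the lowest, the 5 brightest and the 5 dimmest, further members singled out for the gap between the 18 h arrays after their values were seen, and from the translation lists the 3 largest changes at 18 h. Alternatives were floors of 0, 50 and 100, a pseudocount of 16, no filter or a filter at 100, quantile normalization, median centring, the mean over a gene's probe sets, single treated arrays left out, fits on the groups compared alone and a replicate block. Probe sets for RNA integrity were not used here.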

Additional observations from a re-analysis of the deposited data

How the results depend on the processing

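The counts of 0 called probe sets held under floors of 0, 50 and 100, a pseudocount of 16, a filter at 100, quantile normalization, centring, fits on the compared groups alone and each of the 4 treated arrays left out in turn. The untreated array, the 1 array of its group, was not left out. Without a filter, 97 probe sets were called at 18 h against untreated, 100 at 6 h and 1 between the times, among 7018, with 0 members. The 1989 probe sets added there are at or under the floor on all 5 arrays and have no spread, which enters the estimate that all probe sets share. Leaving out single treated arrays moved the median changes of the 42 genes between -0.396 and 0.325 at 18 h against untreated, -0.52 and 0.65 at 6 h, and -0.71 and 0.44 between the times, so that their sign depends on which replicate is kept (without 6 h replicate 1, -0.52 at 6 h and 0.44 between the times; without 6 h replicate 2, 0.65 and -0.71; without 18 h replicate 1, 0.325 at 18 h and 0.25 between the times; without 18 h replicate 2, -0.396 and -0.46). Quantile normalization gave -0.032, -0.012 and -0.046, a sign opposite to the 0.08 at 6 h. Median changes without RPS27 and RPL3L, an alternative chosen after seeing the data, were -0.057, 0.08 and -0.127.

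At 18 h against untreated, single arrays left out gave RPS28 -0.074 to 0.52 and RPL3L -1.22 to 0.84, and a floor of 50 gave RPL3L 0.39. At 6 h they gave RPL35A -0.024 to 1.32, RPL34 -0.14 to 1.13, RPL11 -0.19 to 1.07, RPS28 -0.25 to 1.12, RPL24 -0.90 to 0.36, RPS29 -0.76 to 0.35, RPS21 -0.66 to 0.31 and RPS16 -0.73 to 0.45. Between the times they gave RPL37A -0.51 to 0.87, RPL24 -0.46 to 0.80, RPS29 -0.42 to 0.69, RPL41 -0.48 to 0.67, RPS7 -1.30 to 0.027, RPL10A -1.08 to 0.012 and RPL7 -1.02 to 0.13. RPS6, RPS7, RPL10A and RPL7 stayed below 0, and RPS9, RPL35A, RPL38 and RPL34 above 0, at 18 h against untreated in every setting run, which for arrays left out follows from groups that do not overlap. The cause was not tested.

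With the replicate number as a block, 0 probe sets were called between the times and the median was -0.13. The deviations of same-numbered 6 h and 18 h arrays correlated at -0.29 over 5029 probe sets, and with crossed numbers, chosen after seeing the data, 0 were called.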
